A study of Rattus norvegicus with 21 samples.

Results

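The genes described here handle taurine and the sulfur amino acids in the liver: the taurine carrier Slc6a6, the taurine-synthesis enzymes Cdo1 and Csad, the transsulfuration enzymes Cbs and Cth, and the methionine-cycle enzymes Mat1a, Gnmt, Ahcy and Bhmt. Every probe set was taken whose platform gene symbol was exactly one of these 9 names, which gave 10 of the 31099 probe sets on the array, or 9 of 14217 named genes. Slc6a6 had 2 probe sets and each other gene had 1. All 10 passed the filter on dim probe sets, so none of the 9 genes was left out. Their transcripts were measured in 21 rat livers, 1 array per animal, from separate studies of PBO (piperonyl butoxide, an insecticide synergist) and DAM (dammar resin, a plant resin).

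In the PBO study, male Sprague-Dawley rats were dosed by mouth for 7 days with 0.5% methyl cellulose (called 0 mg/kg) or with PBO at 500, 1000 or 1500 mg/kg, 3 animals each. In the DAM study, male Fischer344 rats ate a basal diet or a diet with 2% or 5% DAM, which the labels equate to 800 and 2000 mg/kg, for 28 days, again 3 animals each. The labels give neither the ages of the rats nor any genetic modification. Livers of the PBO study went into RNAlater and livers of the DAM study into liquid nitrogen, so compound, strain, route, duration and storage cannot be told apart between the studies.

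Methionine is made into S-adenosylmethionine, the main methyl donor of the cell, by the methionine adenosyltransferase Mat1a of the adult liver. Gnmt uses that donor to methylate glycine and so sets how much of it is left, Ahcy splits the product S-adenosylhomocysteine to homocysteine, and Bhmt returns homocysteine to methionine with a methyl group from betaine. Along the other branch Cbs and Cth turn homocysteine into cysteine, Cdo1 oxidises cysteine to cysteine sulfinate, and Csad decarboxylates it on the way to taurine. Hepatocytes also take taurine up from the blood through Slc6a6 and attach it to bile acids.

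Arrays have no read depth, and precision is limited by having 3 of them in each group. The mean signal after trimming lay between 500.2 and 500.3 on all 21 arrays. The 3' to 5' signal ratio of the actin control was 2.38 to 3.16 in the PBO study and 5.56 to 9.81 in the DAM study. All 9 hepatocyte markers passed the filter, and their summed signal was 273817 to 342437 in PBO controls and 218692 to 268478 in DAM controls. PBO 1500 replicate 3 stood apart from its group, with a root mean square deviation of 0.495 log2 units from the group mean against 0.355 and 0.368 for its partners and 0.276 to 0.313 on the other PBO arrays. It was the lowest of its group in 6 of the 10 probe sets and the highest in 3, so values without it stand beside the results at 1500 mg/kg that it moved most. Changes are differences of log2(signal + 16), with the standard error (SE) of a limma fit to all arrays of a study, and a change was called at an adjusted p under 0.05. Scaling the arrays to a common median instead raised changes at PBO 1000, PBO 1500 and DAM 2000 mg/kg by a median of 0.112, 0.121 and 0.106. The share of rises among all calls then went from 73.0% to 84.1%, 60.4% to 80.5% and 46.6% to 63.0% at rising PBO dose, from 47.2% to 65.7% in the PBO trend, and from 57.2% to 73.3% and 50.4% to 73.9% on DAM. In whole liver, fewer cells of a type and less RNA per cell cannot be told apart.

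The promoters of the 3 genes that fell at the most doses, Slc6a6, Gnmt and Bhmt, were read from RefSeq (build GRCr8), which held 8 of the 9 members. Each held the nuclear receptor half-site AGGTCA, or TGACCT on the other strand, within 250 bases before the gene's start. Ahcy, which was called in no comparison, held it too and is printed beside them for that reason. Cth and Csad, both called lower at PBO 1500 mg/kg, did not hold it. Cdo1, also called lower there, was the member without a promoter in the source. Capitals mark the half-site, each sequence reads 5' to 3' on the gene's strand, and the Gnmt stretch ends at a more distal RefSeq start inside its window. In Slc6a6 the half-site lies after such a start, and 30 bases around it are shown.
Slc6a6, chr4:125752392-125752421, plus strand: aacagacacgcgAGGTCAgggagaagccgc
Gnmt, chr9:21752032-21752234, plus strand: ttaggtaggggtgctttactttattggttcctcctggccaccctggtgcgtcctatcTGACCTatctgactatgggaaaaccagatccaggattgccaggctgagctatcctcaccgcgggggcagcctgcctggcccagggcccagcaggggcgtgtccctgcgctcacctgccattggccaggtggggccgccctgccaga
Bhmt, chr2:26614430-26614679, minus strand: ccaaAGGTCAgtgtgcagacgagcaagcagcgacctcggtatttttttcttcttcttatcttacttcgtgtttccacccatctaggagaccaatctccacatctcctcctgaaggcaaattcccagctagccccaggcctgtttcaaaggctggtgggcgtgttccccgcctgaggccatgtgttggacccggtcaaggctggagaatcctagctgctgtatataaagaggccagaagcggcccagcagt
Ahcy, chr3:164044563-164044812, minus strand: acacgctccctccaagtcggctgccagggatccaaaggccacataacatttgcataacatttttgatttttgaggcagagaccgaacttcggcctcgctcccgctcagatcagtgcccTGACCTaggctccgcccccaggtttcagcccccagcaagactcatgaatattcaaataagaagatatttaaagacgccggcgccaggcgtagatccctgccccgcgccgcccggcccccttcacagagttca

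The half-site, searched on both strands, began at position -98 in Slc6a6, -193 in Gnmt, -246 in Bhmt and -132 in Ahcy, counted from the gene's start. The 4 of 8 members with it compare with 14.1% of 33469 RefSeq promoters of that length. The TATA box letters TATAAA were in 2 of 8 members (Bhmt and Slc6a6) against 12.9% of promoters, CCAAT in 4 of 8 against 34.0%, and the GC box GGGCGG in 6 of 8 against 30.5%. No motif contains another. A match describes letters in the window and shows no binding.

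Slc6a6, the carrier that brings taurine into the cell, was lower at every dose of both compounds. Its brighter probe set (1374531_at) read 4956, 3210 and 3253 in the 3 PBO controls. It read 476, 610 and 141 at 500 mg/kg, 100, 139 and 153 at 1000 mg/kg, and 226, 101 and 648 at 1500 mg/kg. No treated animal reached the lowest control, and the highest treated value, 648, came from a 1500 mg/kg animal. The group means were 3807 ± 996 (SD, n = 3) in controls and 409 ± 242, 131 ± 27.6 and 325 ± 287 at rising dose, or 10.7%, 3.4% and 8.5% of the control mean. The log2 changes were -3.36 ± 0.56 (SE), -4.69 ± 0.56 and -3.82 ± 0.56, with limma adjusted p-values of 0.0171, 0.000614 and 0.000658. On leaving out control replicate 1, 2 or 3 the change at 500 mg/kg was -3.16, -3.47 and -3.46 and missed the threshold (adjusted p = 0.101, 0.0685 and 0.0583). On leaving out PBO 500 replicate 3 it was -2.75 (0.0570), and the adjusted p was 0.0714 when the spread was not modelled on signal.

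The second Slc6a6 probe set (1368778_at) gave 1972, 956 and 1390 in PBO controls and 218, 187 and 19.2 at 500 mg/kg. At 1000 mg/kg it read 74.0, 105 and 96.9, and at 1500 mg/kg 190, 86.3 and 181. Every treated value lay under every control, at 9.8%, 6.4% and 10.6% of the control mean. The change at 500 mg/kg was -3.56 ± 0.57 (SE; limma adjusted p = 0.0129), and it missed the threshold without control replicate 1 or 3 (-3.30 and -3.55; 0.0830 and 0.0583). Both probe sets moved together, with a Pearson r of 0.94 over the 12 PBO arrays and 0.98 over the 9 DAM arrays, which describes probe sets of 1 gene on shared arrays. Among 18625 probe sets ranked from the largest fall, the pair stood at 2 and 4 at 500 mg/kg, 3 and 8 at 1000 mg/kg and 12 and 24 at 1500 mg/kg.

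No further fall of Slc6a6 from 500 to 1500 mg/kg was resolved. The difference between these doses was -0.45 ± 0.56 for the brighter probe set (95% interval -1.68 to 0.77) and 0.44 ± 0.57 for the second one (-0.80 to 1.68), neither called. Both intervals are wide and hold changes in either direction. Several treated signals also lay near the PBO array medians of 94.3 to 114.1, where a further fall would be hard to see. The change of the second probe set at 500 mg/kg was -3.88 with log2(signal + 1) and -3.00 with log2(signal + 64). Without PBO 1500 replicate 3, the highest of its group at 648, the brighter probe set differed by -1.11 between these doses (adjusted p = 0.195) and by -4.48 from controls (3.33e-05).

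In the DAM study the brighter Slc6a6 probe set read 3978, 5498 and 4475 on the basal diet. On DAM it read 1075, 889.6 and 1389 at 800 mg/kg and 1496, 1240.0 and 967 at 2000 mg/kg. Every treated animal lay below every control, while the treated groups overlapped each other. The means were 24.0% and 26.5% of the control mean, and the log2 changes -2.05 ± 0.18 and -1.91 ± 0.18 (SE, n = 3 per group; limma adjusted p = 5.30e-05 and 2.50e-05). The second probe set gave -2.14 ± 0.26 and -1.97 ± 0.26. All 4 of these calls held under every alternative run.

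**Figure D1:**
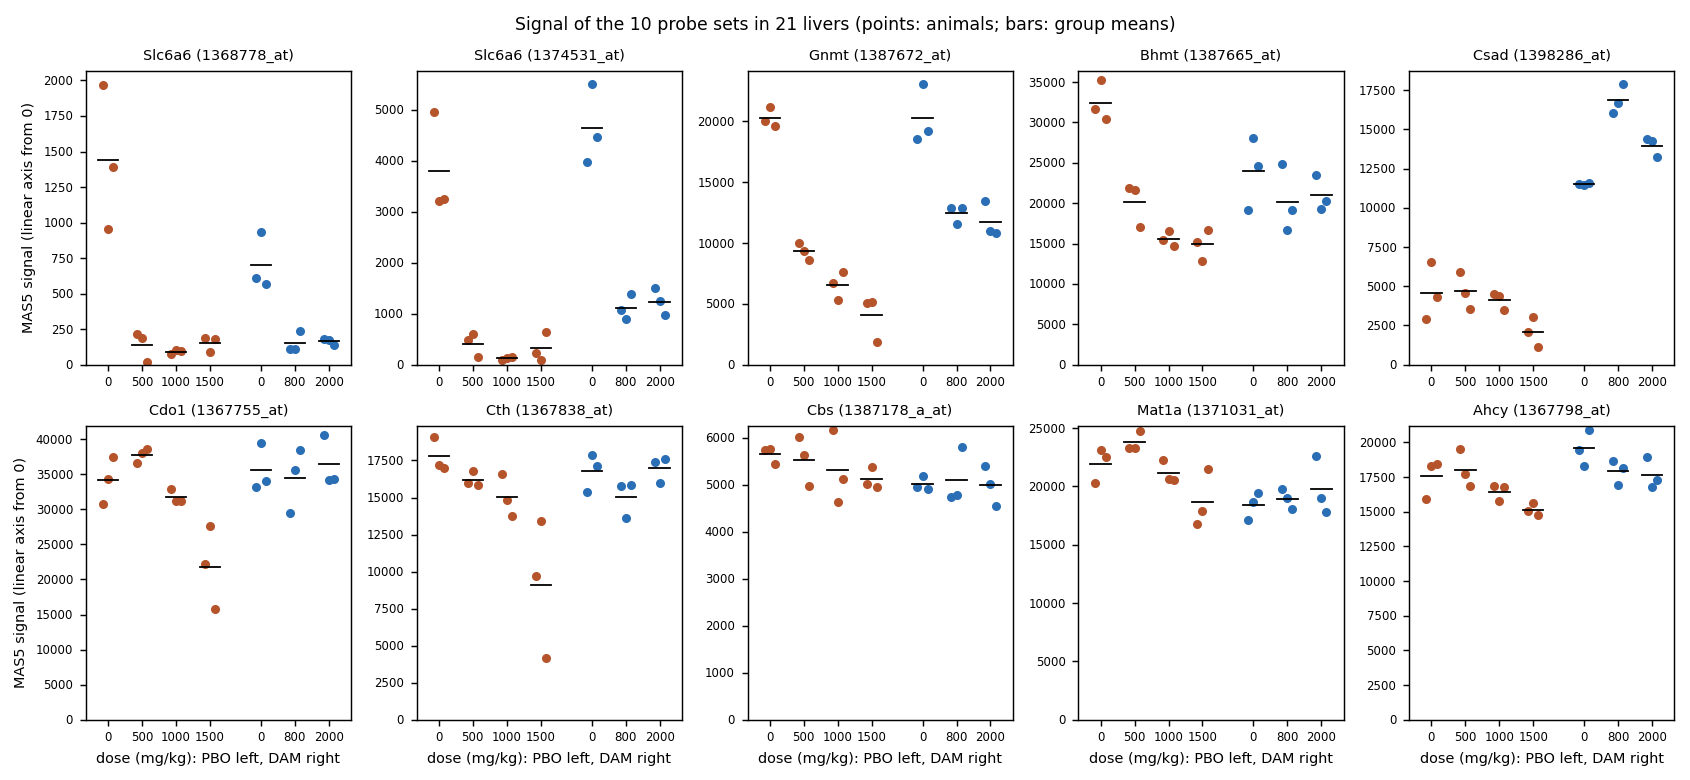
MAS5 signal of each of the 10 probe sets (linear axes from 0) against dose in mg/kg, with PBO animals in brown on the left and DAM animals in blue on the right; points are animals and bars are group means of 3. Slc6a6 falls to 3.4% to 10.7% of its control mean on PBO and to 24.0% and 26.5% on DAM, Gnmt steps down with PBO dose, and Csad rises on DAM.

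Gnmt, the glycine N-methyltransferase that buffers S-adenosylmethionine, stepped down with each PBO dose. It read 20031, 21159 and 19619 in controls, 9977, 9381 and 8621 at 500 mg/kg, 6749, 5305 and 7585 at 1000 mg/kg, and 5103, 5172 and 1871 at 1500 mg/kg. None of the 4 groups overlapped another. The means fell to 46.0%, 32.3% and 20.0% of control, with log2 changes of -1.12 ± 0.30, -1.64 ± 0.30 and -2.46 ± 0.30 (SE). The changes at 1000 and 1500 mg/kg passed the test and that at 500 mg/kg did not, with limma adjusted p-values of 0.162, 0.00950 and 0.000149 at rising dose.

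The uncalled value at 500 mg/kg depended on the spread of another group. Without PBO 1500 replicate 3, which read 1871 against 5103 and 5172, the same change of -1.12 had an adjusted p of 0.000145. The change at 1500 mg/kg was -1.98 without that array (adjusted p = 5.45e-07). Between 500 and 1500 mg/kg Gnmt changed by -1.34 ± 0.30 (adjusted p = 0.0181, but 0.0650 and 0.0627 without PBO 500 replicate 1 or 2), and by -0.86 without PBO 1500 replicate 3 (0.00148). It changed per step of 500 mg/kg by -0.79 ± 0.09 (adjusted p = 7.42e-05).

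On DAM, Gnmt went from 18566, 23116 and 19254 on the basal diet to 12876, 11594 and 12862 at 800 mg/kg and 13422, 11000.0 and 10835 at 2000 mg/kg. The treated animals all lay below the controls, at 61.3% and 57.9% of the control mean. The changes were -0.70 ± 0.10 and -0.79 ± 0.10 (SE, n = 3 per group; limma adjusted p = 0.00193 and 0.000271), and both calls held under every alternative. From 800 to 2000 mg/kg the difference was -0.09 (95% interval -0.31 to 0.13).

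Bhmt, the betaine-homocysteine methyltransferase, also fell at every PBO dose. Its signal was 31650.1, 35301 and 30411 in controls, 21852, 21622 and 17053 at 500 mg/kg, 15483, 16536 and 14658 at 1000 mg/kg, and 15201, 12877 and 16709 at 1500 mg/kg. Treated and control animals did not overlap at any dose, whereas the 1000 and 1500 mg/kg groups did overlap each other. The log2 changes were -0.69 ± 0.13, -1.06 ± 0.13 and -1.12 ± 0.13 (SE), to 62.2%, 47.9% and 46.0% of the control mean, with limma adjusted p-values of 0.0293, 0.000578 and 8.31e-05.

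The call for Bhmt at 500 mg/kg was lost without any one of the 6 arrays compared, with adjusted p-values of 0.106, 0.155 and 0.0667 for control replicates 1, 2 and 3, and 0.0631, 0.0743 and 0.103 for PBO 500 replicates 1, 2 and 3. It was also lost without PBO 1000 replicate 1 (0.0550). On DAM, Bhmt read 19124, 28072 and 24593 on the basal diet, 24845, 16633 and 19139 at 800 mg/kg and 23549, 19256 and 20244 at 2000 mg/kg. These groups overlapped, and the changes of -0.25 (95% interval -0.58 to 0.08) and -0.17 (-0.51 to 0.16) were not called. The intervals hold both 0 and falls larger than the estimates.

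Csad, which makes hypotaurine from cysteine sulfinate, was called higher at both DAM doses and lower on PBO at 1500 mg/kg only. On DAM it rose from 11516, 11463 and 11604 to 16071, 16691 and 17910 at 800 mg/kg and 14373, 14243 and 13228 at 2000 mg/kg. Every treated animal lay above every control, and the 800 mg/kg animals lay above the 2000 mg/kg animals. The rises were 0.55 ± 0.06 and 0.27 ± 0.06 (SE, n = 3 per group; limma adjusted p = 0.000510 and 0.0151), to 146.5% and 121.0% of the control mean. The higher dose was -0.28 ± 0.06 from the lower, which was not called (adjusted p = 0.0687). The call at 2000 mg/kg was lost without DAM 2000 replicate 1 or 2 (adjusted p = 0.0515 and 0.0587).

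In the PBO study Csad varied widely among controls, at 2891, 6572 and 4295. It read 5926, 4560 and 3565 at 500 mg/kg, 4491, 4405 and 3490 at 1000 mg/kg, and 2098, 3061 and 1141 at 1500 mg/kg. One animal at 1500 mg/kg lay above the lowest control, so the groups overlapped. The change at 1500 mg/kg was -1.15 ± 0.34 (adjusted p = 0.0335), and those at 500 and 1000 mg/kg were 0.08 (95% interval -0.65 to 0.81) and -0.08 (-0.81 to 0.65). Leaving out control replicate 2 or 3 lost the call (adjusted p = 0.133 and 0.0841), as did leaving out PBO 1500 replicate 1 (0.0525) or 3 (0.0878, at -0.77).

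Cdo1, the cysteine dioxygenase that feeds both taurine and sulfate production, was lower at the highest PBO dose. It read 30768, 34323 and 37417 in controls and 22189, 27562 and 15723 at 1500 mg/kg, with no overlap. At 500 and 1000 mg/kg it ranged from 36619 to 38557 and from 31125 to 32840.4, which overlapped the control range. The change at 1500 mg/kg was -0.68 ± 0.16 (SE; limma adjusted p = 0.0114), or 63.9% of the control mean. Against 500 mg/kg it was -0.83 ± 0.16 (adjusted p = 0.00906). The call against controls had an adjusted p of 0.0516 without control replicate 3.

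Cth, the cystathionine gamma-lyase that releases cysteine, followed the same pattern. Controls read 19092, 17221 and 17011, and animals at 1500 mg/kg 9705, 13439 and 4194. The highest treated value lay below the lowest control, and the spread at 1500 mg/kg (coefficient of variation 51.0%) was far above that of controls (6.4%). The change was -1.12 ± 0.29 (SE; limma adjusted p = 0.0206), or 51.3% of the control mean. Without PBO 1500 replicate 3 it was -0.64 (adjusted p = 0.00367), and the call was lost without control replicate 1, 2 or 3 (0.0685, 0.0527 and 0.0542). At 500 and 1000 mg/kg the changes were -0.13 (95% interval -0.77 to 0.51) and -0.24 (-0.88 to 0.40).

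On DAM neither enzyme was called. Cdo1 ranged from 33181 to 39467 on the basal diet, 29435 to 38492 at 800 mg/kg and 34199.8 to 40634 at 2000 mg/kg, and at 2000 mg/kg its change was 0.03 (95% interval -0.20 to 0.26). Cth ranged from 15394 to 17844, 13588 to 15836 and 16006 to 17631, and its change at 2000 mg/kg was 0.02 (-0.16 to 0.20).

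Cbs, Mat1a and Ahcy, which start transsulfuration, make S-adenosylmethionine and clear S-adenosylhomocysteine, were called against controls at no dose of either compound. Cbs ranged from 5435 to 5767 in PBO controls and from 4956 to 5377 at 1500 mg/kg, a change of -0.14 (95% interval -0.40 to 0.11). Mat1a ranged from 20258 to 23092 and from 16769 to 21448, a change of -0.24 (-0.47 to -0.01; limma adjusted p = 0.143). Ahcy ranged from 15931 to 18425 and from 14773 to 15636, a change of -0.21 (-0.42 to -0.00; adjusted p = 0.152). The Cbs and Ahcy groups did not overlap although neither change passed the test. Without PBO 1500 replicate 3, Mat1a was called, at -0.34 (adjusted p = 0.0154). On DAM 2000 mg/kg the changes were -0.01 for Cbs (-0.21 to 0.19), 0.10 for Mat1a (-0.09 to 0.29) and -0.15 for Ahcy (-0.31 to 0.01).

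Counted over the 9 genes, 2 were lower and none higher at PBO 500 mg/kg, where 0.478% of all 18625 probe sets tested were called in either direction (0.129% lower). At 1000 mg/kg 3 were lower, against 3.12% called (1.23% lower), and at 1500 mg/kg 6 were lower, against 17.3% called (9.26% lower). Their median change was -0.03, -0.10 and -1.12 at these doses, and that of all probe sets tested was -0.04, -0.05 and -0.08. At 1500 mg/kg the 3 treated animals all lay below the 3 controls in 7 of 9 genes, as they did in 19.0% of probe sets. The count at 500 mg/kg was 0 without any one control or without PBO 500 replicate 3, and 1 without PBO 500 replicate 1 or 2 or PBO 1000 replicate 1. At 1500 mg/kg it was 3 without control replicate 3.

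Over PBO doses taken as a number, 5 of the 9 genes had a called negative slope per step of 500 mg/kg. Of all probe sets 16.8% were called (8.84% lower). The 5 genes were Gnmt, Bhmt (-0.37 ± 0.05), Slc6a6 (-1.28 ± 0.30), Cth (-0.35 ± 0.10) and Cdo1 (-0.23 ± 0.06). A slope does not mean a fall at each step. The changes at rising dose were -3.36, -4.69 and -3.82 for Slc6a6 and 0.15, -0.10 and -0.68 for Cdo1. The second Slc6a6 probe set had a slope of -0.95 ± 0.30 (limma adjusted p = 0.0447), which lost its call in 14 of 21 alternatives. Without PBO 1500 replicate 1 the count of 5 genes was 3, as Cth (adjusted p = 0.0562) and Cdo1 (0.0646) were lost. Cth was also lost without control replicate 1 (0.0581) and Cdo1 without control replicate 3 (0.0522). Their slopes were -0.19 and -0.15, still called, without PBO 1500 replicate 3. Between 1500 and 500 mg/kg, 3 genes were lower (Gnmt, Cdo1 and, at -1.23 ± 0.34, Csad), against 7.36% of probe sets called (3.60% lower). The Csad call (adjusted p = 0.0454) was lost in 12 of 22 alternatives. Its adjusted p was 0.152, 0.123 and 0.0598 without PBO 500 replicates 1, 2 and 3, 0.0635 without control replicate 3, and 0.0642, 0.0637 and 0.0602 without PBO 1000 replicates 1, 2 and 3. It was 0.0681 and 0.0993 without PBO 1500 replicates 1 and 3, the latter at -0.85. The count was 1 without PBO 500 replicate 1 or 2, and 5 without PBO 1500 replicate 3 (Gnmt, Cdo1, Cth, Bhmt and Mat1a). These comparisons share the same control or dose animals, so their values are set side by side only.

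**Figure D2:**
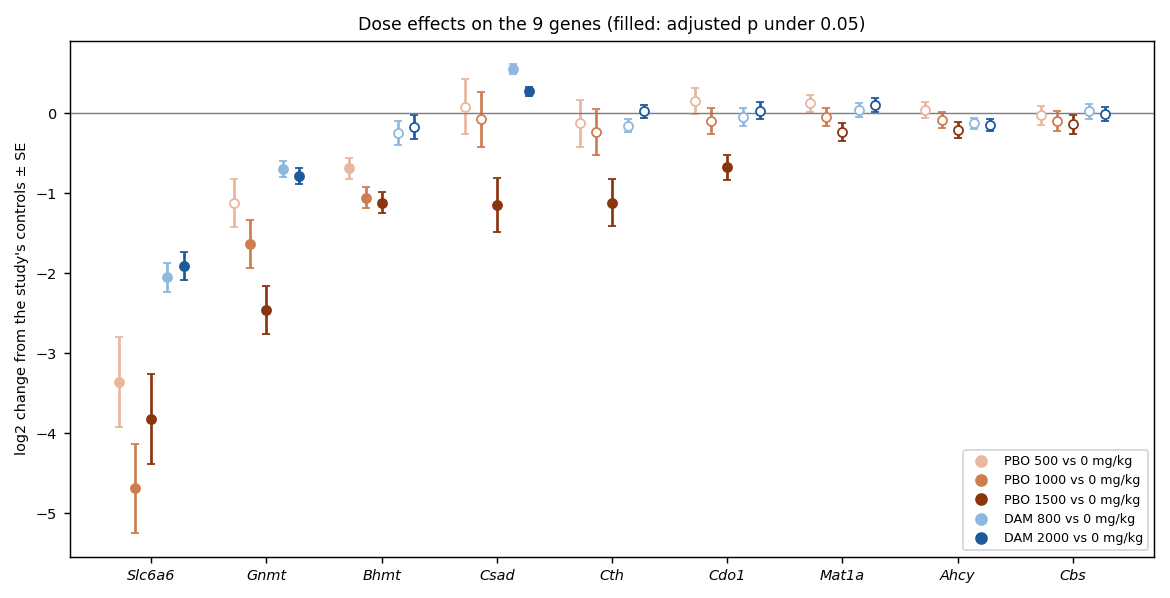
Log2 change of each gene (its brighter probe set) from the controls of its study, with the SE of the fit, for 3 PBO doses in brown and 2 DAM doses in blue, 3 animals per group; filled points have an adjusted p under 0.05. At PBO 1500 mg/kg 6 of 9 genes are lower, while on DAM only Slc6a6 and Gnmt are lower and Csad is higher.

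In the DAM study the count was 2 lower and 1 higher at both doses, against 3.79% of probe sets called at 800 mg/kg (1.62% lower, 2.16% higher) and 12.3% at 2000 mg/kg (6.11% lower, 6.22% higher). The genes were Slc6a6, Gnmt and Csad in each case. The median change over the 9 genes was -0.13 and -0.01, beside -0.02 and -0.04 for all probe sets. Between the DAM doses limma called none of the 9, with 2 at an unadjusted p under 0.05 and 1.11% of all probe sets called. Quantile normalization called 1 of the 9.

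The effects of the highest doses were compared directly, each against its own controls, over all 21 arrays. The PBO effect was lower than the DAM effect for 3 of 9 genes, against 4.91% of probe sets called (2.77% lower). The differences were -1.67 ± 0.35 for Gnmt (95% interval -2.41 to -0.93; limma adjusted p = 0.00937), -0.95 ± 0.21 for Bhmt (-1.40 to -0.50; 0.0141) and -1.43 ± 0.39 for Csad (-2.24 to -0.61; 0.0397). Slc6a6 had the widest intervals. Its brighter probe set differed by -1.91 (-3.31 to -0.50), which was not called (adjusted p = 0.115). Without PBO 1500 replicate 3 that difference was -2.57 and called (adjusted p = 0.00743). The second Slc6a6 probe set differed by -1.15 (-2.63 to 0.33, adjusted p = 0.400), an interval that holds 0. Without the same array it was -1.30 and still not called (adjusted p = 0.356). Cth and Cdo1 were not called, at -1.14 (-1.86 to -0.42) and -0.71 (-1.15 to -0.28). Cth was called without PBO 1500 replicate 1, 2 or 3, at -1.26, -1.49 and -0.66 (adjusted p = 0.0472, 0.00245 and 0.0139), and Cdo1 without replicate 2, at -0.90 (0.00505).

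The Csad call in this comparison had an adjusted p of 0.0554 to 0.0990 without PBO 1500 replicate 3, PBO control replicate 2 or PBO control replicate 3, and it was also lost without any one of the 9 DAM arrays (0.0512 to 0.0892). The count of 3 rose to 5 without PBO 1500 replicate 2 or 3. At the lowest doses, PBO 500 against DAM 800 mg/kg, limma called none of the 9 differences, none had an unadjusted p under 0.05, and 0.0752% of probe sets were called. The Slc6a6 difference was then -1.31 (95% interval -2.71 to 0.09). Doses, routes and durations differ between the studies, so these differences are not of the compounds alone.

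**Figure D3:**
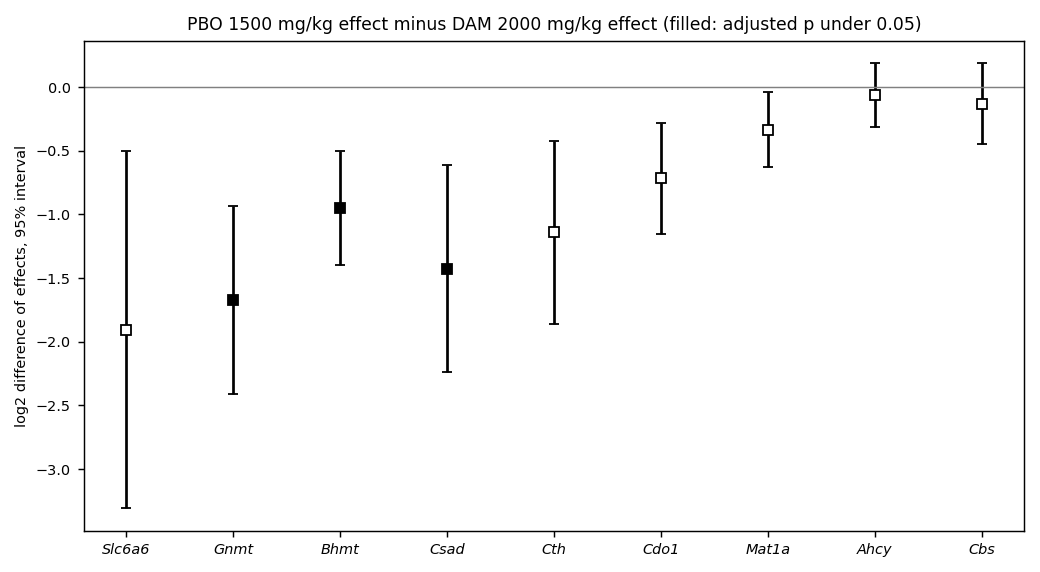
Difference between the PBO 1500 mg/kg effect and the DAM 2000 mg/kg effect for each gene, in log2 units with its 95% interval; filled squares have an adjusted p under 0.05. Gnmt, Bhmt and Csad lie below 0 and passed the test, and the interval of Slc6a6 (brighter probe set only) runs from -3.31 to -0.50.

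Over the 12 PBO arrays the genes fell into differing profiles, given here as Pearson correlations of log2 values that share arrays and doses. Slc6a6 followed Bhmt (r = 0.94) and was nearly unrelated to Csad and Cdo1 (both 0.11) and Cth (0.17). Cdo1 and Cth followed each other (0.93), as did Csad and Cdo1 (0.89), and Gnmt lay between, at 0.81 with Bhmt and 0.83 with Cth. PBO 1500 replicate 3 was the lowest of the 12 arrays for Csad, Cdo1, Cth and Gnmt. No correlation was computed without it, so its share in these values is not known. Among 10670 genes the 3 most like Slc6a6 were Bhmt, Fubp1 (0.935) and Son (0.917), and those most like Bhmt were Fubp1 (0.960), Ube2n (0.947) and Slc6a6. The nearest to Gnmt were Colec11 (0.977), Prodh (0.976), the proline dehydrogenase, and Steap4 (0.975). The nearest to Cdo1 were the secreted liver proteins Ahsg (0.988), Vtn (0.982) and Pzp (0.978). Cth lay nearest S1pr1 (0.986), Gbe1 and Hagh (both 0.983), and Csad nearest Slc37a4 (0.932), Prkd3 (0.931) and Nsdhl (0.930).

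The wider pathway was read from 7 lists of 74 genes with a named probe set, of which 67 were tested in the PBO study and 68 in the DAM study. At PBO 1500 mg/kg 12 were higher and 13 lower, or 37.3% against 17.3% of all probe sets. At DAM 2000 mg/kg 16 were higher and 10 lower, or 38.2% against 12.3%. At PBO 500 mg/kg 1 was higher and none lower, or 1.49% against 0.478% of all probe sets. The counts were 7 higher and 3 lower at PBO 1000 mg/kg (14.9% against 3.12%). They were 7 and 6 at DAM 800 mg/kg (19.1% against 3.79%). By list, 16.7% to 63.6% of the genes were called at PBO 1500 mg/kg and 16.7% to 66.7% at DAM 2000 mg/kg. The list counts below stand beside the same 17.3% and 12.3% of all probe sets. The lists were chosen with earlier results of these data known, so the shares describe them and test nothing.

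Among other genes of taurine synthesis and use, 2 of 5 fell at PBO 1500 mg/kg. Fmo1, a flavin monooxygenase that can oxidise hypotaurine to taurine, went from 5104 ± 1007 (SD, n = 3) to 832 ± 906, a change of -3.28 ± 0.63 (SE; limma adjusted p = 0.00339). Without PBO 1500 replicate 3 the Fmo1 change was -2.34 (adjusted p = 0.000719). Baat, which joins taurine or glycine to bile acids, changed by -0.99 ± 0.21 (adjusted p = 0.00616), and by -0.65 without that array (0.000325). On DAM 2000 mg/kg 1 of 4 rose, the decarboxylase Gadl1, from a dim 31.5 ± 11.5 to 95.6 ± 10.7. Fmo1 then stood at 0.50 ± 0.15 and was not called (adjusted p = 0.0543).

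Of 5 carriers tested, 1 was higher and 1 lower at PBO 1500 mg/kg, and 2 were higher at DAM 2000 mg/kg. Slc3a2, the heavy chain shared by several amino acid exchangers, rose in both studies, by 1.96 ± 0.22 at PBO 1500 mg/kg and 0.69 ± 0.12 at DAM 2000 mg/kg (limma adjusted p = 9.19e-05 and 0.00264). Slc6a13, a carrier of the same family as Slc6a6 that also moves taurine, rose on DAM from 1570 ± 98.2 (SD) to 2535 ± 130, by 0.69 ± 0.08 (adjusted p = 0.000159). On PBO it stood at -0.25 ± 0.14 and was not called (adjusted p = 0.237). The creatine carrier Slc6a8, of the same family, fell on PBO from 262 ± 52.2 to 133 ± 46.5, by -0.92 ± 0.25 (adjusted p = 0.0251). It missed the threshold when control replicates 2 and 3 (0.0885 and 0.0913) or PBO 1500 replicates 1 and 3 (0.0677 and 0.0675) were each left out, with no filter on low signal (0.0546) and when other doses were left out of the fit (0.0892). On DAM it stood at -0.21 ± 0.18 (adjusted p = 0.495).

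Genes of glutathione synthesis and turnover, another use of cysteine, were 5 higher and 2 lower of 11 at PBO 1500 mg/kg. At DAM 2000 mg/kg they were 3 higher and 2 lower of 11. These are 63.6% and 45.5% of the list, beside 17.3% and 12.3% of all probe sets. Ggt1, the gamma-glutamyl transferase that starts glutathione breakdown, rose from 111 ± 37.2 (SD) to 4261 ± 834 on PBO and from 73.9 ± 9.6 to 1100 ± 129 on DAM. The changes were 5.09 ± 0.22 and 3.63 ± 0.14 (SE; limma adjusted p = 3.85e-08 and 2.25e-08). Its controls lay near the array medians, so the size depends on the pseudocount, from 5.28 and 3.88 with 1 to 4.63 and 3.07 with 64. Cndp2, a dipeptidase that splits cysteinylglycine, rose by 1.19 on PBO (adjusted p = 0.000212) and was not called on DAM (0.37 ± 0.18, 0.218). Chac2, which degrades glutathione inside the cell, fell by 1.19 on PBO (adjusted p = 0.000602). It was also lower on DAM, at -0.54 ± 0.14 (adjusted p = 0.0249), a call lost in 5 of 19 alternatives. Oplah, the 5-oxoprolinase, rose by 0.68 on DAM (adjusted p = 7.26e-05) and was not called on PBO (0.24 ± 0.13, 0.234).

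Genes of sulfur oxidation and of sulfate activation and transport were 1 higher and 4 lower of 9 on PBO. They were 3 higher and 3 lower of 9 on DAM. These are 55.6% and 66.7% of the list, beside 17.3% and 12.3% of all probe sets. Papss2, which makes the activated sulfate used by sulfotransferases, fell in both, by -1.07 ± 0.11 and -0.59 ± 0.07 (SE; limma adjusted p = 3.57e-05 and 9.18e-05). The sulfate carrier Slc26a1 changed by -1.23 ± 0.16 on PBO (adjusted p = 0.000309). On DAM it changed by -0.27 ± 0.08 (adjusted p = 0.0418), a call lost in 11 of 19 alternatives. The aminotransferase Kyat1 rose by 1.92 ± 0.21 and 0.44 ± 0.09 (adjusted p = 5.97e-05 and 0.00592), and Sqor, the sulfide oxidoreductase, by 0.58 ± 0.11 on DAM (adjusted p = 0.00458). On PBO the Sqor change was of like size but less precise, at 0.54 ± 0.28, and was not called (adjusted p = 0.205).

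Around the methionine cycle, betaine and folate genes were 2 higher and 2 lower of 15 on PBO and 2 higher and 3 lower of 17 on DAM. These are 26.7% and 29.4% of the list, beside 17.3% and 12.3% of all probe sets. Bhmt2, the paralog of Bhmt, was not called on PBO, at -0.24 ± 0.10 (adjusted p = 0.122). Amt, a glycine cleavage gene, rose by 0.76 ± 0.13 on PBO (adjusted p = 0.00177) and was not called on DAM (0.18 ± 0.09, adjusted p = 0.206). Gldc, another, stood at -0.85 ± 0.11 on DAM (adjusted p = 0.000374) and was not called on PBO (-0.50 ± 0.20, adjusted p = 0.0996). Of 12 genes of S-adenosylmethionine supply and use, 2 fell at PBO 1500 mg/kg, and 1 rose and 1 fell at DAM 2000 mg/kg. That is 16.7% in each study, beside 17.3% and 12.3% of all probe sets. The PBO falls were Pemt and Adk, and the Adk call (-0.38 ± 0.11, adjusted p = 0.0278) was lost in 7 of 22 alternatives. Pemt, which methylates phosphatidylethanolamine, stood at -0.90 ± 0.12 on PBO (adjusted p = 0.000310), and the methyltransferase Inmt rose by 1.15 ± 0.12 on DAM (adjusted p = 4.36e-05). Pemt was not called on DAM (-0.07 ± 0.08, adjusted p = 0.634), nor was Inmt on PBO (-1.66 ± 0.85, adjusted p = 0.206). Of 10 polyamine and salvage genes, 3 rose on PBO, and 4 rose and 1 fell on DAM. Both studies called Odc1, the ornithine decarboxylase, at 0.87 ± 0.16 and 0.48 ± 0.10 (adjusted p = 0.00234 and 0.00773).

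**Figure D4:**
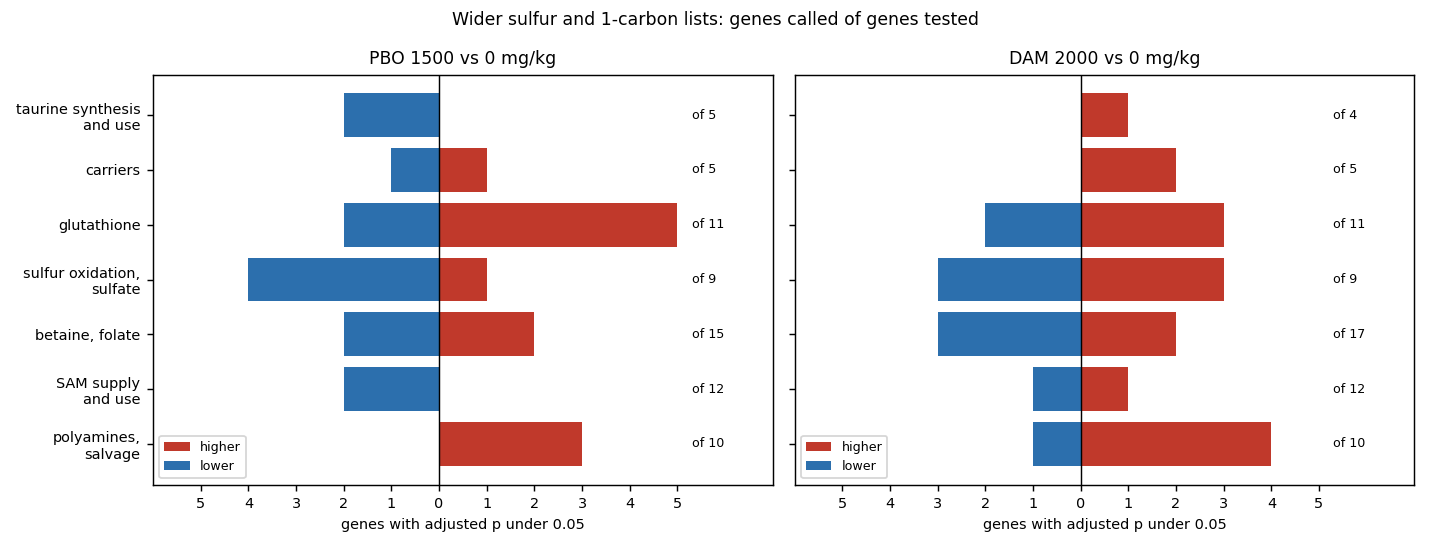
Number of genes called lower (blue, to the left of 0) and higher (red, to the right) in each of the 7 wider lists at PBO 1500 mg/kg and DAM 2000 mg/kg; the number tested stands at the right of each row. Glutathione genes are 5 higher and 2 lower on PBO, and sulfur oxidation and sulfate genes are 1 higher and 4 lower. Of all probe sets, 17.3% were called at PBO 1500 mg/kg and 12.3% at DAM 2000 mg/kg.

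Some markers of other cell types were called at PBO 1500 mg/kg too, and their part in the falls described above was not tested. Of all probe sets 17.3% were called at that dose (9.26% lower), and the lists are short. Macrophage markers were lower in 3 of 8, with a summed signal of 16938 to 19342 in controls and 2989 to 13760 at 1500 mg/kg. Erythroid markers were lower in 2 of 3, with sums of 21596 to 22811 and 4350.0 to 9993. Hepatocyte markers were lower in 3 of 9, with sums of 273817 to 342437 and 257536 to 304103, which overlapped. Lower counts were 1 of 4 endothelial, 2 of 7 stellate and 1 of 1 T and NK cell markers, 1 of 3 cholangiocyte markers was higher, and none of 5 cell cycle genes was called. At DAM 2000 mg/kg 12.3% of all probe sets were called (6.11% lower, 6.22% higher). The hepatocyte list had 1 higher and 2 lower of 9 at that dose, and the stellate list 3 lower of 7. The macrophage list had 1 lower of 8 and the cholangiocyte list 1 higher of 2. The endothelial, erythroid, T and NK cell and cell cycle lists had none called there.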

How the data were processed

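Liver RNA of 21 rats was hybridised to 1-colour short oligonucleotide arrays. The authors deposited 1 table of linear intensity values per probe set. MAS5 is named in the submitters' processing notes, and its version was not given in the sources used here. Groups and replicate numbers came from the labels, which call the replicates biological. The 9 genes and all lists were chosen with earlier results of these data known.

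Symbols came from the platform annotation, updated through Entrez identifiers. Of 31099 probe sets, 20826 had 1 symbol, 436 several and 9780 none, and 57 controls were left out of tests. Values were taken as log2(signal + 16) with no further normalization, and probe sets with a mean above the 40th percentile of the fit were kept, 18625 in each fit. Each study had its own limma fit (lmFit, then eBayes with a mean-variance trend), and differences between studies over all arrays. Benjamini-Hochberg adjustment ran over every tested probe set, and a call needed an adjusted p under 0.05. The fits were tested on simulated data.

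A gene was represented by its tested probe set with the highest mean. The text names every member, up to 4 genes of each wider list with the smallest adjusted p at the highest doses, and the 3 genes best correlated with each called member over the PBO arrays. Bhmt2 is named outside that rule, as the paralog of a member. Alternatives were pseudocounts of 1 and 64, a filter at the 60th percentile or none, scaling by quantiles or to a common median, no trend, array weights, the replicate number as a block, only the arrays of both groups, and leaving out each array. The promoter motifs were searched in the RefSeq table. The software was limma 3.58.1 under R 4.3.3, and matplotlib 3.10.9 under Python 3.11.15.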

Additional observations from a re-analysis of the deposited data

Results flagged for a closer look

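The response to the highest dose differed between the studies for 3 genes, by a limma test of the difference itself. Gnmt changed by -2.46 at PBO 1500 mg/kg and by -0.79 at DAM 2000 mg/kg, a difference of -1.67 ± 0.35 (SE; adjusted p = 0.00937), and every treated animal of both studies lay below its controls. Bhmt changed by -1.12 and -0.17, a difference of -0.95 ± 0.21 (adjusted p = 0.0141), with no overlap of treated and control animals on PBO and overlap on DAM. Csad changed by -1.15 and 0.27, a difference of -1.43 ± 0.39 (adjusted p = 0.0397), and its PBO groups overlapped. The call for the Csad difference was lost in 14 of 30 alternatives. Compound, strain, route, duration and storage cannot be told apart in these differences.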

How the results depend on the processing

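The member calls at PBO 1000, DAM 800 and DAM 2000 mg/kg kept their counts within 1.5 times under every alternative run. At PBO 500 mg/kg the count of 2 was 1 with no filter, 1 with common median scaling, 0 without the trend and 1 with the replicate block, and 0 to 3 leaving out single arrays. At 1500 mg/kg the count of 6 was 3 with only the arrays of both groups and 3 to 6 leaving out single arrays. Between 1500 and 500 mg/kg the count of 3 was 5 at the 60th percentile, 6 with array weights and 0 when just those arrays were fitted, and 1 to 5 leaving out single arrays. The trend count of 5 was 3 to 6 leaving out single arrays. Between the DAM doses the count of 0 was 1 after quantile normalization. The count of 3 for the difference of highest doses was 5 with array weights and 2 to 5 leaving out single arrays. The Bhmt difference had an adjusted p of 0.0506 with common median scaling. The Csad difference had 0.0533 with no filter and 0.0752 without the trend. The cause of these changes was not tested.

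Signs turned only for values that were not called. After quantile normalization Cdo1 was -0.00 at PBO 500 mg/kg and -0.07 at DAM 2000 mg/kg, Mat1a and Ahcy were 0.06 and 0.00 at PBO 1000 mg/kg, and Ahcy was 0.10 in the difference of highest doses. With a common median Cbs was 0.05 at PBO 500 mg/kg and 0.10 at DAM 2000 mg/kg, Cdo1 was 0.02 at DAM 800 mg/kg, and Csad, Cdo1, Cbs, Mat1a and Ahcy were 0.04, 0.01, 0.02, 0.06 and 0.03 at PBO 1000 mg/kg. Leaving out single arrays gave, at PBO 500 mg/kg, -0.21 to 0.38 for Csad, -0.09 to 0.04 for Cbs and -0.03 to 0.09 for Ahcy, and at PBO 1000 mg/kg -0.37 to 0.22 for Csad. Between PBO 1500 and 500 mg/kg it gave -1.11 to 0.14 and -0.44 to 0.93 for the Slc6a6 probe sets. At DAM 800 mg/kg it gave -0.13 to 0.06 for Cdo1, -0.07 to 0.07 for Cbs and -0.01 to 0.08 for Mat1a. At DAM 2000 mg/kg it gave -0.05 to 0.11 for Cdo1, -0.04 to 0.07 for Cth, -0.07 to 0.05 for Cbs and -0.00 to 0.17 for Mat1a. Between the DAM doses it gave -0.01 to 0.31 and -0.00 to 0.51 for the Slc6a6 probe sets and -0.06 to 0.23 for Bhmt.

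The count of all probe sets called ranged from 45 to 371 around 89 at PBO 500 mg/kg, 255 to 1448 around 581 at PBO 1000 mg/kg, 1550.0 to 3495 around 3228 at PBO 1500 mg/kg, 245 to 1976 around 1370.0 between 1500 and 500 mg/kg, 235 to 804 around 705 at DAM 800 mg/kg, 1492 to 2408 around 2296 at DAM 2000 mg/kg, 60 to 276 around 207 between the DAM doses, 502 to 1425 around 914 for the difference of highest doses and 8 to 42 around 14 for that of lowest doses. Same-numbered animals of different groups did not deviate together, with correlations of -0.07 to 0.03 over 18 PBO pairs and -0.06 to 0.10 over 9 DAM pairs. With the number as a block the counts were 1, 3 and 6 at rising PBO dose and 3 and 3 on DAM. Low signal limits Slc6a6 on PBO and Ggt1 in controls, where values lay near the array medians.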
